A study of Mus musculus with 6 samples.

Results

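Described here are 10 genes of the extracellular matrix, Fn1, Tgfbi, Thbs1, Thbs2, Thbs4, Sparc, Sparcl1, Postn, Fbln2 and Fbn1, in the hippocampus of mice after bilateral carotid artery stenosis (BCAS). The 10 genes were found by their symbols among the 54752 genes of the count tables, and all 10 were among the 18617 genes that passed the filter on low counts. Each library was made from the whole right hippocampus of a single mouse 3 weeks after surgery, with 3 mice in the sham group and 3 in the BCAS group. In BCAS mice a microcoil was placed around each common carotid artery, with the narrower coil on the right, and sham mice had the same surgery without coils. Mice of both groups were male wild-type C57BL/6 animals (C57BL/6 J in the methods) whose labels give a time of 14 weeks, which fits their age at sampling, so the surgery was the only labelled difference between them. Each library is a mixture of all hippocampal cells, in which more cells of a type and more RNA per cell cannot be told apart.

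Fibronectin, encoded by Fn1, is an adhesive glycoprotein that cells bind through integrins, and it enters the brain matrix from vessels, fibroblasts and plasma. Matricellular proteins, in contrast, signal from the matrix more than they build it. Among them, thrombospondins and SPARC-like 1 (also called hevin) are secreted by astrocytes and promote the formation of synapses, whereas SPARC can oppose hevin. Periostin (Postn) and TGFBI are related adhesion proteins built from fasciclin domains, and both genes are induced by TGF-beta in many cells. Fibrillin 1 (Fbn1) forms microfibrils, to which fibulin 2 (Fbln2) binds.

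The libraries held 29652456 to 35607098 counts, at which 3 counts, taken as the limit of detection, correspond to 0.0874 to 0.0994 CPM, the read count of a gene scaled to a common library size with edgeR's TMM factors. The lowest member count was 79, for Postn in sham mouse 3, so all 10 genes lay above this limit in every library. Markers of hippocampal neurons such as Prox1, Neurod6 and Wfs1 were present in all libraries, as the labelled tissue requires. Markers of the choroid plexus, a tissue that borders the hippocampus, varied widely within each group, and 0 of 6 passed the test between groups. Their summed level was 976, 4051 and 67.3 CPM in sham mice 1 to 3 and 5889.9, 45.5 and 3184 CPM in BCAS mice 1 to 3. Results for the members are therefore also given without sham mouse 2 and BCAS mouse 1, the library highest in these markers in each group. BCAS mouse 3, at 3184 CPM, stays in that comparison, beside BCAS mouse 2 at 45.5 CPM and sham mice at 976 and 67.3 CPM. That comparison therefore does not balance these markers between the groups.

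Which of these matrix genes differed between BCAS and sham mice was tested with edgeR's quasi-likelihood test over all tested genes. All p-values were adjusted by the Benjamini-Hochberg method. The study's thresholds were used, which ask for a log2 fold change beyond 1 in either direction together with an adjusted p below 0.05. Of the 10 genes, 6 passed both thresholds and all 6 rose: Thbs1, Tgfbi, Thbs2, Sparc, Fn1 and Postn. Among all tested genes, 8.47% rose and 0.999% fell by the same rule. Thbs4 and Fbln2 rose with an adjusted p under 0.05 and a smaller fold change, which makes 8 of 10 by the adjusted p alone, where 18% of all tested genes rose and 13.2% fell. Sparcl1 and Fbn1 did not pass. In 9 of the 10 genes, all but Fbn1, every BCAS mouse lay above every sham mouse, a pattern seen in 25.3% of all tested genes. The median log2 fold change was 1.11 for the 10 genes and 0.018 for all tested genes. When the fold change itself was tested against a log2 value of 1 with edgeR's glmTreat, 2 of the 6 genes passed, Thbs1 (adjusted p = 0.00236) and Sparc (adjusted p = 0.0485).

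**Figure D1:**
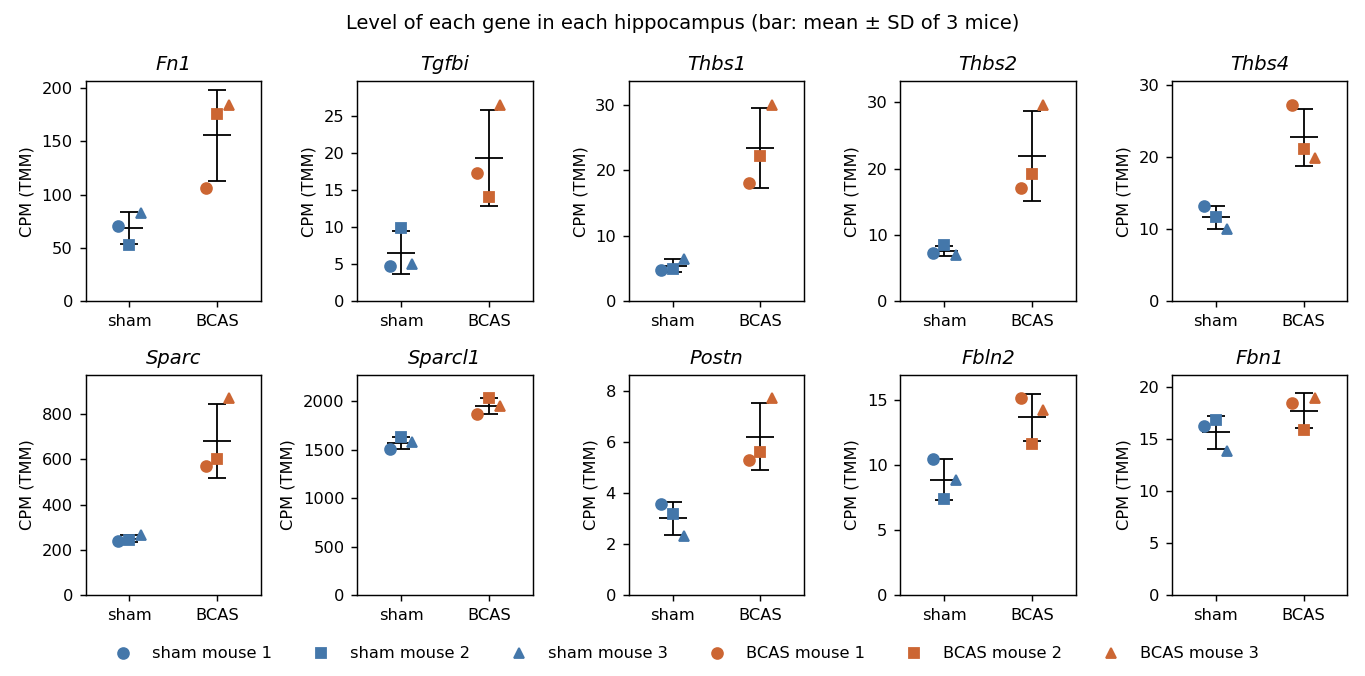
Normalized level (CPM, vertical axis from 0) of each gene in each of the 3 sham mice (blue) and 3 BCAS mice (orange), with the symbol giving the mouse number and black bars giving the mean ± SD. The groups are apart in all panels but that of Fbn1, where BCAS mouse 2 at 15.9 CPM lies below sham mice 1 and 2.

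**Figure D2:**
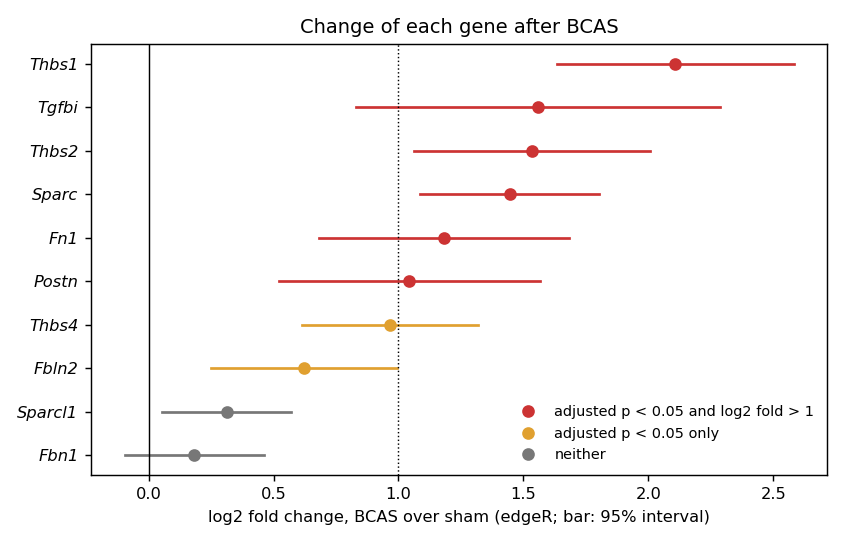
Fitted log2 fold change of BCAS over sham for each gene (horizontal axis), with its 95% interval from edgeR, ordered by size. The value runs from 0.18 for Fbn1 to 2.11 for Thbs1, and the dotted line marks the fold change threshold of 1.

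Thbs1 had the largest change of the 10 genes. It encodes thrombospondin 1, an inhibitor of vessel growth that binds CD36 and CD47 and can activate latent TGF-beta. Thbs1 (ENSMUSG00000040152.8, mm10 chromosome 2, 118111876 to 118127133, plus strand) measured 4.75, 4.99 and 6.52 CPM in sham mice 1 to 3 and 18.0, 22.2 and 29.98 CPM in BCAS mice 1 to 3. The lowest BCAS mouse was thus far above the highest sham mouse, and BCAS mouse 3 was the highest. Sham mice averaged 5.42 ± 0.963 CPM and BCAS mice 23.4 ± 6.08 CPM (SD, n = 3 each). The fitted log2 fold change was 2.11 with a standard error of 0.21 (adjusted p = 1.54e-04). Thbs1 shares 208 exonic bases, 3.42% of its exonic length, with the antisense gene Gm29233. The counting ignored strand, so reads there were not assigned to either gene.

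Thbs2, which encodes the close relative thrombospondin 2, also rose. Thbs2 (ENSMUSG00000023885.9, chromosome 17, 14665500 to 14694235, minus strand) measured 7.31, 8.46 and 6.93 CPM in sham mice 1 to 3 and 17.0, 19.1 and 29.6 CPM in BCAS mice 1 to 3. As for Thbs1, the sham mice were close together and BCAS mouse 3 stood highest. Means were 7.57 ± 0.797 CPM in sham and 21.9 ± 6.75 CPM in BCAS mice (SD, n = 3 each), and the fitted log2 fold change was 1.53 (standard error 0.21, adjusted p = 8.92e-04).

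Thbs4 belongs to the other branch of the family, which lacks the domain used to activate TGF-beta and forms pentamers. Thbs4 (ENSMUSG00000021702.7, chromosome 13, 92751590 to 92794818, minus strand) measured 13.2, 11.7 and 10.1 CPM in sham mice 1 to 3 and 27.3, 21.1 and 19.9 CPM in BCAS mice 1 to 3. Here BCAS mouse 1 was the highest and BCAS mouse 3 the lowest of its group, the reverse of Thbs1 and Thbs2. Group means were 11.7 ± 1.55 CPM in sham and 22.8 ± 3.96 CPM in BCAS mice (SD, n = 3 each), and the log2 fold change of 0.97 (standard error 0.15, adjusted p = 0.00211) lay just under the threshold of 1. It was 1.04 with library totals in place of TMM, 1.06 without sham mouse 1, 1.01 without BCAS mouse 2 and 1.05 without BCAS mouse 3, and each of these passed both thresholds. Without sham mouse 2, sham mouse 3 or BCAS mouse 1 it was 0.96, 0.87 and 0.81, respectively, below the fold change threshold. Without the pair of libraries highest in choroid plexus markers it was 0.81 (adjusted p = 0.0173).

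Sparc, the gene of a collagen-binding protein, had the second highest level of the 10 genes and rose in every BCAS mouse. Sparc (ENSMUSG00000018593.13, chromosome 11, 55394500 to 55423183, minus strand) measured 239.7, 246 and 265 CPM in sham mice 1 to 3 and 570.3, 604 and 869.6 CPM in BCAS mice 1 to 3. The sham mice differed little, while BCAS mouse 3 stood apart from BCAS mice 1 and 2. With a standard error of 0.16, the log2 fold change of Sparc was 1.44 (adjusted p = 2.49e-04), and it lay between 1.23 and 1.56 with each mouse left out in turn.

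Sparcl1, which encodes hevin, had the highest level of the 10 genes and changed little. Sparcl1 (ENSMUSG00000029309.7, chromosome 5, 104079111 to 104113733, minus strand) measured 1506, 1632 and 1578 CPM in sham mice 1 to 3 and 1871, 2030.1 and 1954 CPM in BCAS mice 1 to 3. The groups did not overlap, and the spread within each group was small. The log2 fold change of 0.31 (standard error 0.11, 95% interval 0.06 to 0.57) had an adjusted p of 0.0656 and did not pass. It passed the adjusted p of 0.05 with DESeq2 (0.30, adjusted p = 9.79e-04), with limma-voom (0.31, adjusted p = 0.0250) and with library totals (0.39, adjusted p = 0.0185), while its adjusted p was between 0.0506 and 0.256 under the other settings apart from glmTreat, where it was 1.

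Fn1 (ENSMUSG00000026193.15, chromosome 1, 71585520 to 71653200, minus strand) was the most abundant of the other genes. It measured 70.4, 52.5 and 82.9 CPM in sham mice 1 to 3 and 106, 176 and 184 CPM in BCAS mice 1 to 3. BCAS mouse 1 was nearer to the sham mice than to BCAS mice 2 and 3, but the groups did not overlap. Its log2 fold change was 1.18 (standard error 0.22, adjusted p = 0.00439), and 1.23 (adjusted p = 4.02e-04) without the pair of libraries highest in choroid plexus markers. The counts cover the whole gene, so the alternatively spliced forms of fibronectin were not told apart. Fn1 shares 292 exonic bases, 2.50% of its exonic length, with the antisense gene Apol7d, and reads there were likewise not assigned to either gene.

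Tgfbi, the gene of an adhesion protein named for its induction by TGF-beta, had the widest spread among sham mice relative to its mean, with a coefficient of variation of 44.7%. Tgfbi (ENSMUSG00000035493.10, chromosome 13, 56609523 to 56639562, plus strand) measured 4.72, 9.93 and 5.01 CPM in sham mice 1 to 3 and 17.3, 14.1 and 26.5 CPM in BCAS mice 1 to 3. Sham mouse 2 was about as far from the other sham mice as from the lowest BCAS mouse. Its log2 fold change was 1.56 (standard error 0.32, adjusted p = 0.00702). Sham mouse 2 was also the sham mouse highest in choroid plexus markers, and without it and BCAS mouse 1 the log2 fold change was 2.06 (adjusted p = 0.00197).

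Postn, the gene of periostin, had the lowest level of the 10 genes per length. Postn (ENSMUSG00000027750.16, chromosome 3, 54361109 to 54391037, plus strand) measured 3.57, 3.17 and 2.30 CPM in sham mice 1 to 3, from 79 to 121 counts, and 5.29, 5.63 and 7.72 CPM in BCAS mice 1 to 3, from 170 to 241 counts. All BCAS mice were above all sham mice, with BCAS mouse 3 highest. The log2 fold change of 1.04 (standard error 0.23, adjusted p = 0.00965) was just over the threshold. It was 0.88 without sham mouse 3 (adjusted p = 0.0377) and 0.85 without BCAS mouse 3 (adjusted p = 0.0321), where Postn no longer passed the fold change threshold.

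Fbln2 and Fbn1, the microfibril genes of the group, had small differences. Fbln2 (ENSMUSG00000064080.12, chromosome 6, 91212455 to 91272540, plus strand) measured 10.4, 7.36 and 8.88 CPM in sham mice 1 to 3 and 15.1, 11.7 and 14.3 CPM in BCAS mice 1 to 3. Its groups did not overlap, although BCAS mouse 2 came close to sham mouse 1. The log2 fold change of Fbln2 was 0.62 (standard error 0.16, adjusted p = 0.0201). The adjusted p was above 0.05 without sham mouse 2 (0.0732), sham mouse 3 (0.0660), BCAS mouse 1 (0.0665) or BCAS mouse 3 (0.0537). In these fits, each with 1 mouse fewer, the log2 fold change was 0.50, 0.62, 0.54 and 0.59, respectively. Without both sham mouse 2 and BCAS mouse 1 it was 0.42 (adjusted p = 0.195). Fbn1 (ENSMUSG00000027204.13, chromosome 2, 125300594 to 125507993, minus strand) measured 16.2, 16.8 and 13.8 CPM in sham mice 1 to 3 and 18.5, 15.9 and 18.9 CPM in BCAS mice 1 to 3. The groups overlapped, and the log2 fold change of 0.18 (standard error 0.12, adjusted p = 0.294) had a 95% interval of -0.10 to 0.46, which leaves out a change of 2-fold. Fbn1 shares 2442 exonic bases, 20.1% of its exonic length, with the antisense gene Gm9913, and reads there were not assigned to either gene.

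Without sham mouse 2 and BCAS mouse 1, the pair highest in choroid plexus markers, the log2 fold change was 2.21 for Thbs1 (adjusted p = 3.35e-04), 1.77 for Thbs2 (adjusted p = 0.00110), 1.54 for Sparc (adjusted p = 0.00140), 1.18 for Postn (adjusted p = 0.0304), 0.37 for Sparcl1 (adjusted p = 0.256) and 0.21 for Fbn1 (adjusted p = 0.463), and it is given for the other 4 genes where they are described.

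BCAS mouse 3 had the highest CPM of all 6 mice for 7 of the 10 genes, namely Fn1, Tgfbi, Thbs1, Thbs2, Sparc, Postn and Fbn1, against 27.2% of all tested genes. That share includes genes that fell, and the share among genes that rose was not counted. Among the related genes described below that passed both thresholds, all but Lox, Ccn5, Spp1 and Nid2 were also highest in BCAS mouse 3. BCAS mouse 1 was highest for Thbs4 and Fbln2, and BCAS mouse 2 for Sparcl1.

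Levels of different genes were compared per length, as TPM, the share of a gene in all counts of its library after division by exonic length. In sham mice the order was Sparcl1 (1810.4 ± 56.2 TPM, SD, n = 3), Sparc (223 ± 6.60), Fn1 (19.8 ± 4.22), Thbs4 (12.03 ± 1.92), Tgfbi (5.87 ± 2.61), Fbln2 (4.73 ± 0.910), Fbn1 (4.37 ± 0.524), Thbs2 (3.66 ± 0.408), Thbs1 (3.01 ± 0.460) and Postn (1.18 ± 0.281). The TPM of Fbn1 was divided by its whole exonic length, with the bases shared with Gm9913 in which reads were not assigned, so its level is understated and its place below Fbln2 is uncertain. Neighbours from Tgfbi down to Thbs1 overlapped in this order, while the genes above Tgfbi and Postn stood apart from their neighbours. In BCAS mice the first 5 genes kept their places, Thbs1 (13.5 ± 3.71 TPM) and Thbs2 (11.0 ± 3.58 TPM) stood above Fbln2 (7.53 ± 1.13 TPM) and Fbn1 (5.12 ± 0.583 TPM), and Postn (2.50 ± 0.575 TPM) remained last. Neighbours from Thbs4 to Thbs2 overlapped in BCAS mice. The summed level of the 10 genes was 2057 to 2147 TPM in sham mice and 2881 to 3345 TPM in BCAS mice, most of it from Sparcl1 and Sparc. Sparcl1 made up 86.7% ± 0.612 of this sum in sham mice and 75.6% ± 3.996 in BCAS mice, and Sparc 10.7% ± 0.515 and 20.3% ± 3.65 (SD, n = 3 each). Without these 2 genes the sum was 52.7 to 57.4 TPM in sham mice and 112 to 152 TPM in BCAS mice.

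Ratios of 2 genes within a library need no normalization between libraries, and 7 pairs were compared with an exact two-sided permutation test, which cannot go below p = 0.1 with 3 mice against 3. The log2 ratio of Sparc over Sparcl1, per length, was -3.02, -3.10 and -2.94 in sham mice 1 to 3 and -2.08, -2.12 and -1.53 in BCAS mice 1 to 3. The difference of 1.11 exceeded the SD within groups of 0.079 and 0.33, and the groups did not overlap (exact permutation p = 0.1, adjusted over the 7 pairs 0.175). Thbs1 was below Thbs2 in sham mice 1 and 2, at log2 ratios of -0.42 and -0.55, and above it in sham mouse 3 (0.12) and in BCAS mice 1 to 3 (0.28, 0.42 and 0.22). The groups did not overlap for this pair, with a difference of 0.59 (exact permutation p = 0.1, adjusted 0.175). Thbs1 over Thbs4 was at -2.36, -2.11 and -1.52 in sham mice and at -1.49, -0.81 and -0.30 in BCAS mice, a difference of 1.13 in which sham mouse 3 and BCAS mouse 1 nearly met (exact permutation p = 0.1, adjusted 0.175). Fbln2 over Fbn1 also had groups without overlap, with a difference of 0.44 (exact permutation p = 0.1, adjusted 0.175). The groups overlapped for Thbs2 over Thbs4 (difference 0.53, exact permutation p = 0.3), Tgfbi over Postn (0.55, exact permutation p = 0.2) and Fn1 over Fbn1 (0.98, exact permutation p = 0.2). No pair could have passed an adjusted p of 0.05 with 3 mice per group. Single mice moved several of these differences: Fbln2 over Fbn1 was at 0.26 without sham mouse 2, Thbs2 over Thbs4 at 0.21 without BCAS mouse 3 and 0.83 without BCAS mouse 1, and Tgfbi over Postn at 0.22 without sham mouse 1 and 0.84 without sham mouse 2.

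**Figure D3:**
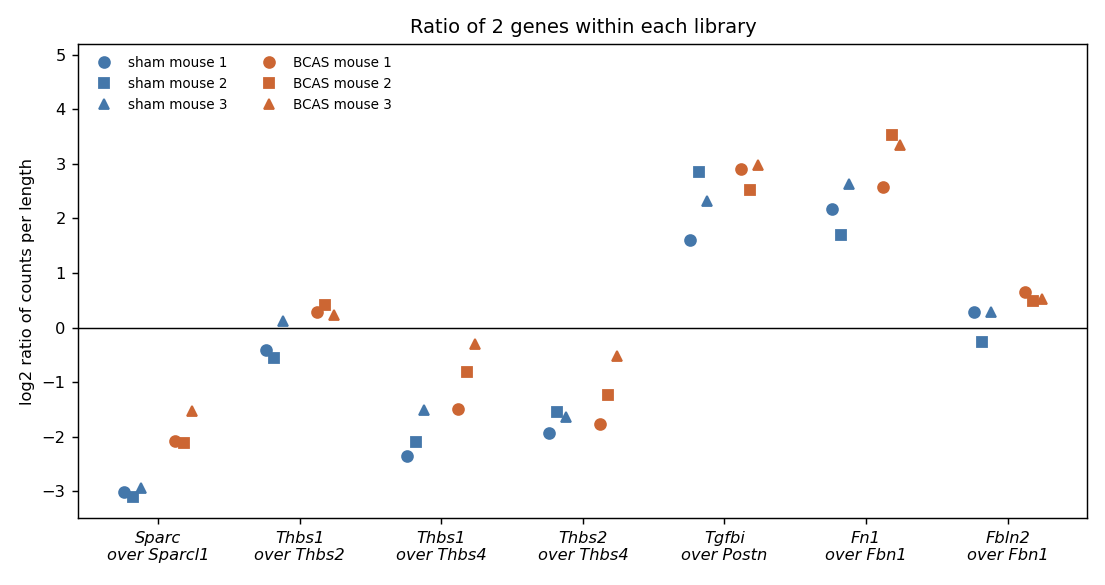
Log2 ratio of the counts per length of 2 genes (vertical axis) in each sham mouse (blue) and BCAS mouse (orange), with the symbol giving the mouse number. Sparc over Sparcl1 has the clearest separation, with sham mice near -3.02 and BCAS mice between -2.12 and -1.53.

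Promoter sequence was looked at for 7 of the 10 genes, whether or not they rose, and the promoters of Fn1, Thbs1 and Sparcl1 were not analysed here. The table of RefSeq start sites used, of build GRCm38.p6, held Tgfbi, Thbs2, Thbs4, Sparc, Postn, Fbln2 and Fbn1, in 8 windows of 300 bases from 250 before to 50 after a start. Each window was searched on both strands for CAGACA (a SMAD-binding core), CATTCC (the TEAD motif), TGANTCA (the AP-1 motif) and TATAAA (the TATA box). The 4 windows that held a match are given without the bases after the start, 5′ to 3′ on the strand of the gene and with matches in capitals, where TGTCTG and TTTATA are matches on the opposite strand. They lie at chr17:14694263-14694512 for Thbs2, chr13:92794819-92795068 for Thbs4, chr11:55420081-55420330 for Sparc, all 3 on the minus strand, and chr3:54360857-54361106 for the second of the Postn starts, on the plus strand. The Sparc window lies inside the annotated span of the gene.
Thbs2: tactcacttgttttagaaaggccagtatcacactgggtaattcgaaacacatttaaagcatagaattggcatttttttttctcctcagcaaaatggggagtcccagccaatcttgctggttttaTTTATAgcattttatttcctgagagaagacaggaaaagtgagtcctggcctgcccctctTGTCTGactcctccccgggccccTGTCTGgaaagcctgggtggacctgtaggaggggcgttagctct
Thbs4: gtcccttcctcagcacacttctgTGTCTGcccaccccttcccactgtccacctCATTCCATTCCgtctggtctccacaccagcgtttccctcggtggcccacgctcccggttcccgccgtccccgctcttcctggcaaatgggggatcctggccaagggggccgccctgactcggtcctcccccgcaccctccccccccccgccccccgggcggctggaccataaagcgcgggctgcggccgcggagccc
Sparc: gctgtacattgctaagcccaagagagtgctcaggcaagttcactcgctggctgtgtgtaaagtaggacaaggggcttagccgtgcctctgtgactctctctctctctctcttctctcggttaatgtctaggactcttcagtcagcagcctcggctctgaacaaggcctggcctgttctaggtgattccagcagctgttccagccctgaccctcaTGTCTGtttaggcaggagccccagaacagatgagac
Postn: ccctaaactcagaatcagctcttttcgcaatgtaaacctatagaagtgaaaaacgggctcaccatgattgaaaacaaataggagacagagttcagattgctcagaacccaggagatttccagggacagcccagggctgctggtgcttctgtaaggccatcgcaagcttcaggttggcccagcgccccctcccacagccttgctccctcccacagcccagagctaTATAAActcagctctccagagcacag

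The SMAD core occurred in 3 of the 8 windows, those of Thbs2 (at -67 and -44 from the start), Thbs4 (at -227) and Sparc (at -36 and, in the part not shown, at 15), against 21% of all 32851 windows. The TEAD motif occurred in the Thbs4 window alone, at -197 and -192, where the copies share 1 base, against 14.7% of all windows. The TATA box occurred in the windows of Postn (at -26) and Thbs2 (at -126), against 13.6%, and the AP-1 motif in none of the 8 windows, against 7.81%. Matches of different motifs did not overlap. These are matches of letters and were not tested as binding sites.

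Other genes of the same families and their receptors were counted in lists, 62 genes in all, of which 60 were tested. Of these 60 genes, 19 passed both thresholds, all of them higher in BCAS mice, and by the adjusted p alone 31 rose and 6 fell, with a median log2 fold change of 0.70. Over all tested genes 8.47% rose and 0.999% fell past both thresholds, and 18% rose and 13.2% fell by the adjusted p. In the elastic fibre list (fibulins, fibrillins, latent TGF-beta binding proteins and lysyl oxidases) 7 of 20 tested genes rose past both thresholds and none fell. The largest rises were those of Lox, which encodes the enzyme that cross-links collagen and elastin (1.54 ± 0.659 to 10.7 ± 2.52 CPM, log2 fold change 2.79, adjusted p = 3.51e-04), its relative Loxl2 (1.98, adjusted p = 0.00879) and Ltbp2 (1.58, adjusted p = 0.0381), the last from a mean of 0.562 CPM in sham mice. Efemp1, Efemp2, Emilin1 and Loxl3 were the others. By the adjusted p alone Ltbp3 (0.91), Fbln7 (0.90), Fbln1 (0.79), Loxl1 (0.69) and Ltbp1 (0.58) also rose. Eln, the elastin gene, was at 12.1 ± 4.93 CPM in sham mice and 12.9 ± 1.58 CPM in BCAS mice (SD, n = 3 each, adjusted p = 0.808).

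Among tenascins, CCN proteins and other matricellular or adhesive genes, 6 of 14 tested genes rose past both thresholds and none fell past them. Spp1, the gene of osteopontin, had the largest change among the 60 related genes tested, from 9.52, 5.32 and 13.7 CPM in sham mice to 104, 260.0 and 243 CPM in BCAS mice (log2 fold change 4.40, adjusted p = 1.30e-04). Ccn5 rose from 0.284 ± 0.148 to 3.57 ± 1.53 CPM (log2 fold change 3.63, adjusted p = 9.21e-04). Ccn1 (1.58, adjusted p = 0.00208), the basement membrane gene Nid1 (1.33, adjusted p = 0.00236), Nid2 (1.18, adjusted p = 0.0463) and Ecm1 (1.10, adjusted p = 0.00509) rose less. The groups overlapped for Nid2, whose highest sham mouse (11.3 CPM in sham mouse 2) and highest BCAS mice (20.2 CPM in BCAS mouse 1 and 19.99 CPM in BCAS mouse 3) were those highest in choroid plexus markers. Tnr, the tenascin of perineuronal nets, fell from 141 ± 15.9 to 106 ± 5.91 CPM by the adjusted p alone (log2 fold change -0.40, adjusted p = 0.0121), while Vtn, the gene of vitronectin (0.73, adjusted p = 0.00868), and Tnc (0.71, adjusted p = 0.0127) rose by it.

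Relatives of Sparc did not move one way. Of 6 genes none passed both thresholds, and by the adjusted p alone Smoc1 (log2 fold change 0.90, adjusted p = 0.00246) and Fstl1 (0.62, adjusted p = 0.00203) rose, while Spock1 (-0.55, adjusted p = 0.0319) and Spock3 (-0.41, adjusted p = 0.00202) fell. The 2 other members of the thrombospondin family, Thbs3 (0.09, adjusted p = 0.685) and Comp (at 0.0598 to 1.72 CPM over the 6 mice, adjusted p = 0.134), did not pass. Of the stabilins, fasciclin-domain receptors that share this domain with Tgfbi and Postn, Stab1, a scavenger receptor that takes up SPARC, rose from 17.2 ± 2.59 to 64.0 ± 22.4 CPM (log2 fold change 1.89, adjusted p = 4.44e-04), and Stab2 did not pass (-0.52, adjusted p = 0.252).

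Among 16 receptors and binding partners, 5 rose past both thresholds. Itga5, the fibronectin receptor subunit that pairs with Itgb1, measured 1.92, 3.02 and 2.83 CPM in sham mice and 10.4, 12.3 and 17.9 CPM in BCAS mice (log2 fold change 2.38, adjusted p = 2.09e-04). Itgb5 (2.34, adjusted p = 1.36e-05) and Itgb3 (2.31, adjusted p = 5.74e-05), which pair with Itgav to bind fibronectin and periostin, rose with the syndecans Sdc4 (1.27, adjusted p = 2.03e-05) and Sdc1 (1.27, adjusted p = 0.0112). By the adjusted p alone, Itgb1 (0.94), Lrp1 (0.66) and Itgav (0.55) also rose. The 3 that fell by it were Cacna2d1, the neuronal thrombospondin receptor for synapse formation (265 ± 4.04 to 183 ± 38.6 CPM, log2 fold change -0.53, adjusted p = 0.0190), Nlgn1, a synaptic adhesion gene (-0.53, adjusted p = 0.0240), and Cd47 (-0.34, adjusted p = 0.0119).

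**Figure D4:**
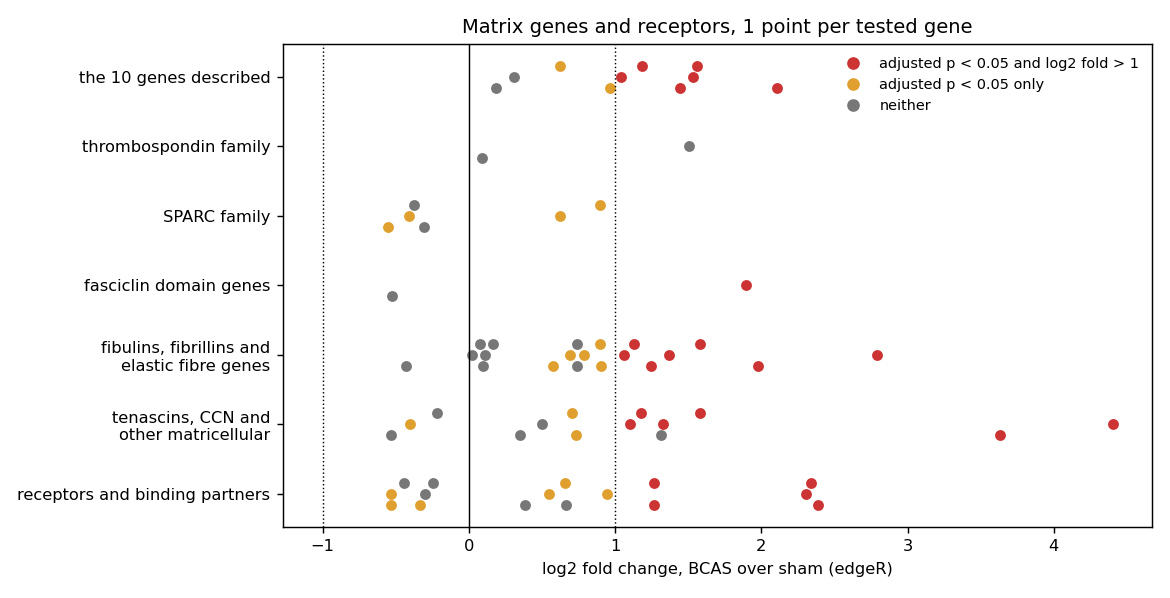
Fitted log2 fold change of BCAS over sham (horizontal axis), 1 point per tested gene, for the 10 genes and the lists of related genes. Red points pass both thresholds and all lie on the right, up to 4.40 for Spp1, while the points of the SPARC family lie on both sides of 0.

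Some lists of cell type markers rose in BCAS mice, that of neurons fell and others did not pass. Their part in the result was not tested. No marker of the lists was at 0 in all libraries. Of 6 microglia markers, all 6 rose past both thresholds, from a summed 269.8 to 279 CPM in sham mice to 1356 to 2168 CPM in BCAS mice, with BCAS mouse 3 highest. Of 6 astrocyte markers, all 6 rose by the adjusted p and 2 of them past both thresholds, from 3551 to 3916 CPM to 8365 to 8989 CPM. Fibroblast markers summed to 147 to 241 CPM in sham mice and 242 to 381 CPM in BCAS mice, where Col1a1 and Col1a2 passed both thresholds and Lum the adjusted p alone, out of 6. Border-associated macrophage markers, 4 of 6 past both thresholds, rose from 9.60 to 13.9 CPM to 26.8 to 35.1 CPM. Monocyte markers, of which 3 of 4 tested passed both thresholds, were low in sham mice (0.449 to 1.03 CPM) and stood at 5.54 to 11.1 CPM in BCAS mice. For vessels the sums were 201 to 226 and 276 to 299.6 CPM (endothelial cells, 3 of 6 by the adjusted p alone) and 219 to 267 and 254 to 275 CPM (pericytes and smooth muscle, 2 of 6 by the adjusted p alone). Platelet markers summed to 3.58 to 4.36 CPM in sham mice and 2.82 to 4.805 CPM in BCAS mice. Only 2 of the 5, Itga2b and Gp5, were high enough to be tested, and neither passed. Red blood cell markers summed to 85.6 to 102 CPM in sham mice and 106 to 177 CPM in BCAS mice, and 0 of 5 passed the test. Markers of hippocampal neurons fell from 7966 to 8295 CPM to 4154 to 5877 CPM, 5 of 8 by the adjusted p and 1 of them, Neurod6, past both thresholds. Prox1, Wfs1 and Zbtb20 did not pass.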

How the data were processed

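RNA-seq counts of 6 libraries were used, 3 sham and 3 BCAS, grouped by their titles. The deposited counts are raw whole-number read counts per gene. According to the submitters' processing notes and the methods, the authors trimmed the reads with Trim Galore, aligned them to mm10 with HISAT2 and counted them with featureCounts 1.6.3. The file headers name featureCounts 2.0.3 with a GENCODE annotation, no strand and mates counted as separate reads, which raises counts without adding molecules.

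Genes were matched to symbols by Ensembl identifier. Low counts were removed with filterByExpr, and groups were compared with edgeR 4.0.16 (TMM, glmQLFTest, R 4.3.3); standard errors come from the test's F value. Alternatives used DESeq2 1.42.0, limma-voom (limma 3.58.1), glmTreat, other normalizations, filters and halved counts, a replicate block and each mouse left out. In simulated libraries with 200 changed genes, edgeR recovered 79% of 2-fold and 99% of 4-fold changes with 7 false calls among 18271 genes. These were calls by the adjusted p alone, without the fold change threshold. The changed genes had a mean of at least 1 CPM, and each gene was given the spread typical of its level. Fewer genes were changed than in the data, where 3356 rose and 2463 fell by the adjusted p.

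The members and gene lists were chosen with earlier results of these data known. By rule, named genes are the 10 members and list members past both thresholds (the 3 largest where over 6 passed). The other elastic fibre genes, genes past the adjusted p alone and list genes that did not pass were named after their values were seen. Ratios used a pseudocount of 0.5 counts. Protein sequences were not analysed here.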

Additional observations from a re-analysis of the deposited data

How the results depend on the processing

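All fold changes of the 10 genes kept their direction under every alternative run, and 6 genes passed both thresholds with DESeq2, limma-voom, RLE normalization, both other filters and halved counts, the same genes in each case. With library totals 7 passed, Thbs4 being added. With each mouse left out in turn, 5 to 7 of the 10 passed both thresholds and 7 or 8 the adjusted p alone. By the adjusted p, DESeq2, limma-voom and library totals each passed 9. With glmTreat, which asks more of the fold change by construction, the counts were 2 of the 10 genes, 8 of the related genes and 818 of all tested genes, against 6, 19 and 1762. Leaving out each mouse gave 14 to 21 related genes and 1306 to 1976 of all tested genes, the lowest of each without BCAS mouse 3. Without sham mouse 2 and BCAS mouse 1, an alternative chosen after seeing the data, the counts were 6, 20 and 1719. Library totals in place of TMM moved the median of all tested genes from 0.018 to 0.094.

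Mice share only a number across groups: deviations from the group means correlated at 0.036, -0.31 and -0.16 for numbers 1, 2 and 3. With the replicate number as a block, 6 of the 10 genes, 17 related genes and 1595 of all tested genes passed both thresholds, and 8 of the 10 genes passed the adjusted p. Not every library correlated best with its own number. The lowest count of the 10 genes was 79, for Postn, with both mates of a read pair counted, and how far depth and the number of mice each limit the precision was not compared.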

Other observations

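For each of the 10 genes, the genes with the most similar pattern over the 6 libraries were sought among 15629 others with a mean of at least 1 CPM, as the smallest root mean square difference of log2 CPM after each gene was centred on its own mean. For Fn1 these were Ecm1, itself a matrix gene of the lists above (difference 0.11), Htra3, a secreted protease (0.11), and Sphk1 (0.12). For Thbs1 they were Tmem173, which encodes STING (0.079), Pyroxd2 (0.081) and Il4ra, a cytokine receptor gene (0.088). For Thbs2 they were Ifitm2, an interferon-induced gene (0.069), Bmp2k (0.085) and Pygl (0.086). Sparc was closest to Wipf1 (0.038), Lmo2 (0.055) and Mob1a (0.057), and Thbs4 to Hyal1, a hyaluronidase gene (0.099), Arhgef19 (0.11) and Gm47173 (0.12). Tgfbi was closest to Piezo1, the gene of a mechanically gated channel (0.17), Galnt12 (0.17) and Trim21 (0.17). Nearest to Postn were Ppara (0.10), Pfkfb4 (0.11) and Prc1 (0.11), and nearest to Fbln2 were Acad10 (0.046), Map3k20 (0.053) and Gm12166 (0.060). Sparcl1 lay nearest to Cdk2ap2 (0.021), Optn (0.022) and S1pr1 (0.023), and Fbn1 to Fbxo32 (0.020), Xpo4 (0.022) and Chd4 (0.022). No member had another member among its 3 closest genes, but members were only a few of the 15629 candidates, so this says little about a shared pattern. With 6 libraries in 2 separate groups, these are descriptions of the samples at hand.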
